A study of Mus musculus with 4 samples.

Results

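The cholesterol synthesis genes Hmgcs1, Idi1, Fdft1, Sqle and Cyp51 and the regulators Insig1 and Srebf2 were followed in IMS32 cells, a line of immortalized adult mouse Schwann cells. Members were taken by gene symbol from the annotation of the array. The rule used no measured value, although the genes were proposed with earlier results of these data known, and the 7 genes were represented by 10 of the 39429 mouse probes. Groups were compared to see what the removal of exogenous pyruvate did at normal and high glucose. The cells were kept for 1 h in DMEM with 5% FBS in 4 conditions that crossed glucose with pyruvate. The [Glc 5 mM/Pyr (+)] group had 5 mM glucose and 1 mM pyruvate, and the [Glc 5 mM/Pyr (−)] group had 5 mM glucose alone. At 15 mM glucose, the [Glc 15 mM/Pyr (+)] group likewise had pyruvate at 1 mM, whereas [Glc 15 mM/Pyr (−)] had none. Each condition was measured once, on 1 one-colour Agilent array of Cy3-labelled cRNA, so that no difference between conditions had a replicate, and all values came from a single line. All cells, controls included, were in serum, and the serum was not stated to be free of lipoproteins.

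Cells build cholesterol from acetyl-CoA through mevalonate, isoprenoid units, squalene and lanosterol. SREBP-2, the product of Srebf2, is a membrane-bound transcription factor that its escort Scap carries from the endoplasmic reticulum to the Golgi when sterols are scarce, where it is cleaved and freed to switch on the genes of this pathway. Insig proteins hold Scap and SREBP-2 in the endoplasmic reticulum when sterols are plentiful, and Insig1 is itself a target of SREBP-2. Schwann cells are known for a high demand for cholesterol, because myelin is rich in it.

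None of the 7 genes reached a 1.5-fold difference between conditions, in either direction, in any of the 4 comparisons. Of all probes with a difference, 5.39% and 9.71% did so for the removal of pyruvate at 5 and 15 mM glucose. For high glucose with and without pyruvate the shares were 5.3% and 10.4%. At such shares few or none of any 7 genes would be past 1.5-fold, so the count does not set the members apart. Insig1 had the highest gene value of the members for the removal of pyruvate at both glucose concentrations, 1.26-fold at 5 mM and 1.31-fold at 15 mM glucose. The enzymes Hmgcs1, Idi1, Fdft1, Sqle and Cyp51 and the factor Srebf2 were here each read from the brightest probe alone. They lay between 0.921-fold (Srebf2, glucose without pyruvate) and 1.15-fold (Idi1, glucose without pyruvate) in all 4 comparisons. This range depends on the probe taken for Fdft1, whose dim probe ran from 0.657-fold to 1.27-fold. Averaged over both probes, the log2 values of Fdft1 ran from −0.26 to 0.19. Which Fdft1 probe reads its transcript was not tested.

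The promoters of the members show where SREBP-2 and its usual partners could bind, and stretches of 3 of them are given here. They come from the RefSeq promoter table of the GRCm38.p6 assembly, which covers 250 bases before and 50 bases after each start, and 5 of the 7 members were matched in it (Hmgcs1, Idi1, Cyp51, Insig1 and Srebf2). Capitals mark the core of the sterol regulatory element (TCACNCCA), to which SREBP-2 binds, the CCAAT box (ATTGG), which NF-Y binds, and the GC box (GGGCGG), which Sp1 binds, each searched on both strands.
Hmgcs1, chr13:119690184-119690268, plus strand: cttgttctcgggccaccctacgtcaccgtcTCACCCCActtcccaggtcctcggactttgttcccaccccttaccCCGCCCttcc
Srebf2, chr15:82147077-82147156, plus strand: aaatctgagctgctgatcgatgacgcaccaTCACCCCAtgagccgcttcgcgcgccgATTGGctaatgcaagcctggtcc
Insig1, chr5:28071182-28071301, plus strand: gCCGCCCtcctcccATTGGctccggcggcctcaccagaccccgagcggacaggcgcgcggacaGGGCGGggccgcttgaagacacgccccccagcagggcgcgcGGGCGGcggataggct

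The sterol regulatory element core was present in the windows of Hmgcs1 and Srebf2, starting 137 and 162 bases upstream of the start, in both as the same 8 letters. It occurred in 4.36% of all 32851 promoters of the table and in 2 of the 5 matched members. A CCAAT box was found in all 5 matched members and in 37.4% of all promoters. A GC box was likewise found in all 5, against 35.7% of all promoters. The Insig1 window held 3 GC boxes and a CCAAT box. These matches are descriptions of letters, and a window without a match says only that the letters are not in it.

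The level of a probe is given as its intensity after the scanner software's background subtraction, and differences are on the log2 scale after the intensities of each array were divided by their 75th percentile, which was 1788, 1740, 1597 and 1632 in the order of the groups above. Differences for pyruvate are Pyr (−) minus Pyr (+), and differences for glucose are 15 mM minus 5 mM. Both of the following errors are technical. The error that the scanner software gave each signal amounted to 0.20 for a log2 difference of a pair of arrays, except on dim probes, where it was larger. Outside the dim Fdft1 and Hmgcs1 probes, it was 0.14 to 0.15 for the log2 level of each member probe on 1 array. It was thus nearly a fixed share of the signal at any brightness. The spread between the spots of probes that were printed 10 times on each array was smaller than this error. It was taken over the 273 to 289 of 399 such probes whose spots were all well above background. Their median SD was 0.069 to 0.075 and thus 0.10 for a difference. Neither error includes the spread between cultures. The spread of replicate spots was taken within each array, so it also leaves out differences in labelling and hybridization between arrays.

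The enzymes are described in the order of the pathway. Hmgcs1 encodes the cytosolic HMG-CoA synthase, which joins acetyl-CoA and acetoacetyl-CoA at the entry to the mevalonate pathway. Its bright probe (A_55_P2032966) read 7095 with and 7248 without pyruvate at 5 mM glucose, and 6721 with and 6820 without it at 15 mM glucose, the order of groups used for all 4 values below. After scaling, all 4 levels lay within 0.08 on the log2 scale. The removal of pyruvate gave 0.07 at 5 mM and −0.01 at 15 mM glucose, both smaller than either error. Its second probe (A_55_P1954569) read 10.99, 9.13, 9.95 and 6.05 and was well above background only in [Glc 5 mM/Pyr (+)], so it gave no measured difference.

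Idi1 encodes the isomerase that interconverts isopentenyl and dimethylallyl diphosphate, the isoprenoid units from which squalene is assembled. Its probe (A_55_P2028961) read 3130, 3098, 2848 and 3338 in the same order of groups. The levels of the first 3 groups were within 0.03 of each other after scaling, and [Glc 15 mM/Pyr (−)] stood 0.20 above both groups it was compared with, its counterpart with pyruvate and its counterpart at 5 mM glucose. That is 1.15-fold in each comparison, about as large as the error of the scanner software and larger than the spread of replicate spots.

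Fdft1 encodes squalene synthase, the first enzyme committed to sterols, and its 2 probes did not give the same picture. The bright probe (A_55_P2033250) read 1492, 1489, 1418 and 1478, with differences of 0.04 and 0.03 for the removal of pyruvate at 5 and 15 mM glucose. The dim probe (A_52_P136138) read 15.4, 19.0, 16.6 and 11.7, close to the lowest intensities that were called well above background (8.60 to 10.5). Its differences were 0.35 for pyruvate at 5 mM, −0.53 for pyruvate at 15 mM, 0.27 for glucose when pyruvate was present and −0.61 when it was not. The last was the one difference of a member probe past 1.5-fold, with an error of 0.37 from the scanner software, and it did not pass after quantile normalization (−0.55) or normexp background correction (−0.21).

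The first 30 bases of the bright Fdft1 probe and of the Insig1 probe, each of which is 60 bases long, are shown because the reading of these genes turns on them. The array annotation placed them in the mm9 build.
Fdft1 A_55_P2033250, chr14:19364899-19364958: agagatttatcactggatccccaactcaga
Insig1 A_51_P290207, chr5:28404246-28404305: acagcatagaacacaacacgtgggacctaa
In that annotation the dim Fdft1 probe lies at chr14:63764562-63764621. The 2 Fdft1 probes are thus 44.4 Mb apart and on opposite strands, although both are assigned to the same transcript record. Which of them reads the Fdft1 transcript was not tested, since no mm9 genome was used here. A gene value taken as the mean over its measured probes was therefore set for Fdft1 mainly by the dim probe (0.19, −0.25, 0.18 and −0.26 for the 4 comparisons).

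Sqle encodes squalene epoxidase, which oxidizes squalene with molecular oxygen and is a control point of the pathway. Its probe (A_55_P1975185) read 9039, 9876, 8867 and 9031. [Glc 5 mM/Pyr (+)] was the lowest of the 4 after scaling, and the other 3 groups were within 0.04 of each other. The removal of pyruvate at 5 mM glucose gave 0.17 and high glucose with pyruvate gave 0.13, both above the spread of replicate spots and below the error of the scanner software. The Sqle difference for glucose without pyruvate was −0.04 and that for pyruvate at 15 mM glucose −0.00.

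Cyp51 encodes the lanosterol demethylase, a cytochrome P450 that acts after the sterol rings have closed. Its probe (A_52_P164161) read 725, 727, 643 and 727. Here [Glc 15 mM/Pyr (−)] was the highest after scaling, by 0.15 over the group with pyruvate and by 0.09 over the pyruvate-free group at 5 mM. At 5 mM glucose the difference for pyruvate was 0.04.

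Srebf2 itself was measured by 2 probes that lie 4697 bases apart in mm9. The brighter one (A_51_P377508) read 1005, 1013, 862 and 875, and the dimmer one (A_55_P2000487) read 140, 130, 123 and 127. For the removal of pyruvate they gave 0.05 and −0.07 at 5 mM glucose and −0.01 and 0.02 at 15 mM glucose, that is, values of both signs within the spread of replicate spots. For glucose without pyruvate the brighter probe gave −0.12 and the dimmer one 0.06. Srebf2 had the smallest range over the 4 groups among the members, 0.05 as the mean of both probes.

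With the probes of a gene averaged, Insig1 had the largest range of the 7 genes, 0.55 on the log2 scale against 0.05 to 0.26 for the others. The dim Fdft1 probe alone had a larger range, 0.61. The Insig1 probe read 458 ± 45.9 with and 562 ± 56.3 without pyruvate at 5 mM glucose. At 15 mM glucose it read 460 ± 46.0 with and 614 ± 61.4 without pyruvate, where the error is that of the scanner software for the single spot. Both pyruvate-free groups were thus above both groups with pyruvate. After scaling, the highest log2 level was −1.41 in [Glc 15 mM/Pyr (−)], followed by −1.63 for the pyruvate-free group at 5 mM glucose, −1.80 for 15 mM glucose with pyruvate and −1.96 for [Glc 5 mM/Pyr (+)]. Neighbours in this order were 0.22 or 0.17 apart, close to the error of 0.20 for a difference.

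**Figure D1:**
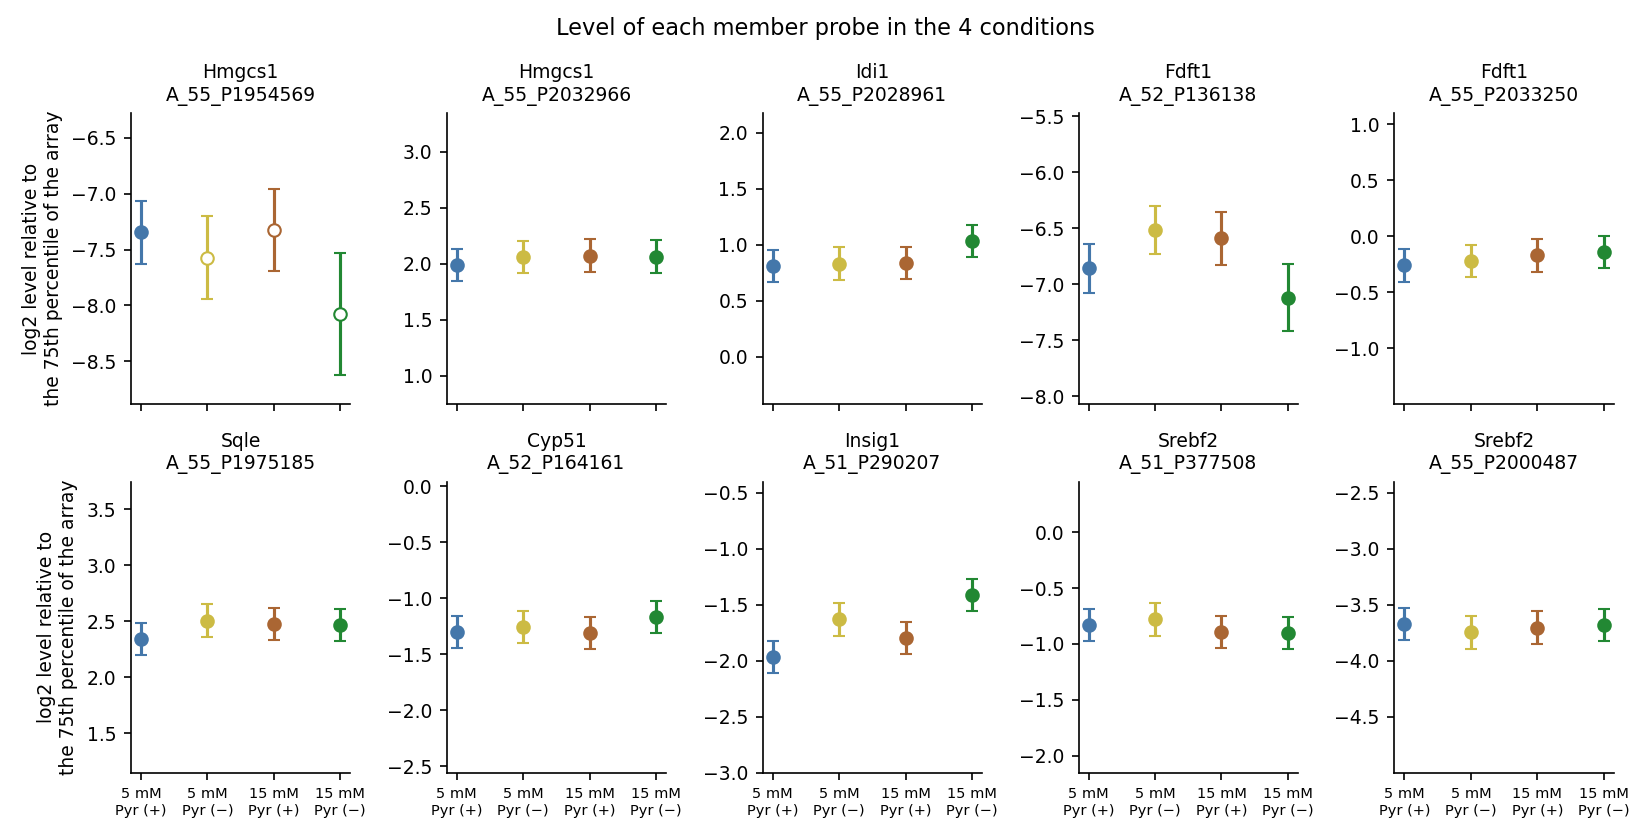
Log2 level of each of the 10 member probes, relative to the 75th percentile of its array, in the 4 conditions (1 array each). Bars are the error the scanner software gave the signal, open circles are signals not well above background, and every panel spans the same number of log2 units. The Insig1 levels run from −1.96 to −1.41 and are higher without pyruvate at both glucose concentrations, whereas the bright Hmgcs1 probe stays between 1.99 and 2.07.

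The Insig1 difference for the removal of pyruvate was 0.33 at 5 mM and 0.39 at 15 mM glucose, and these 2 comparisons share no array. At 5 mM, 3.92% of the probes measured in that comparison were at least as much higher, and at 15 mM it was 6.22%. There were 27589 probes that all 4 arrays read well above background, and 228 of them (0.826%) were higher by at least 0.33 in both comparisons and 249 were lower by as much in both. Insig1 was among the 228 by construction, because the cut-off was its own smaller difference. No other gene of the members and of the 3 other cholesterol lists described below was among them. The Insig1 difference for glucose was 0.17 with pyruvate and 0.22 without, and these comparisons use the same 4 arrays as those for pyruvate. When the arrays were scaled to spike-in controls instead, the median of all probes moved by −0.21 and −0.06 for pyruvate at 5 and 15 mM glucose and by −0.40 and −0.24 for glucose with and without it. On that scale Insig1 gave 0.12 and 0.33 for pyruvate and, with the sign turned, −0.23 and −0.02 for glucose.

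The spread over all probes differed by brightness and between the comparisons. Probes were cut into bins of equal size by brightness. Among the 920 probes of the bin that held Insig1 at 5 mM glucose, 95% lay between −0.27 and 0.29, and Insig1 was outside this range. Among the 919 of its bin at 15 mM glucose the range was wider, −0.55 to 0.45, and Insig1 was inside it. A range of 95% leaves some probes outside by definition, and several member differences were set against such ranges. All other measured differences of member probes for pyruvate lay within the range of probes of like brightness, the dim Fdft1 probe included (−0.65 to 0.65 at 5 mM and −0.68 to 0.57 at 15 mM).

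**Figure D2:**
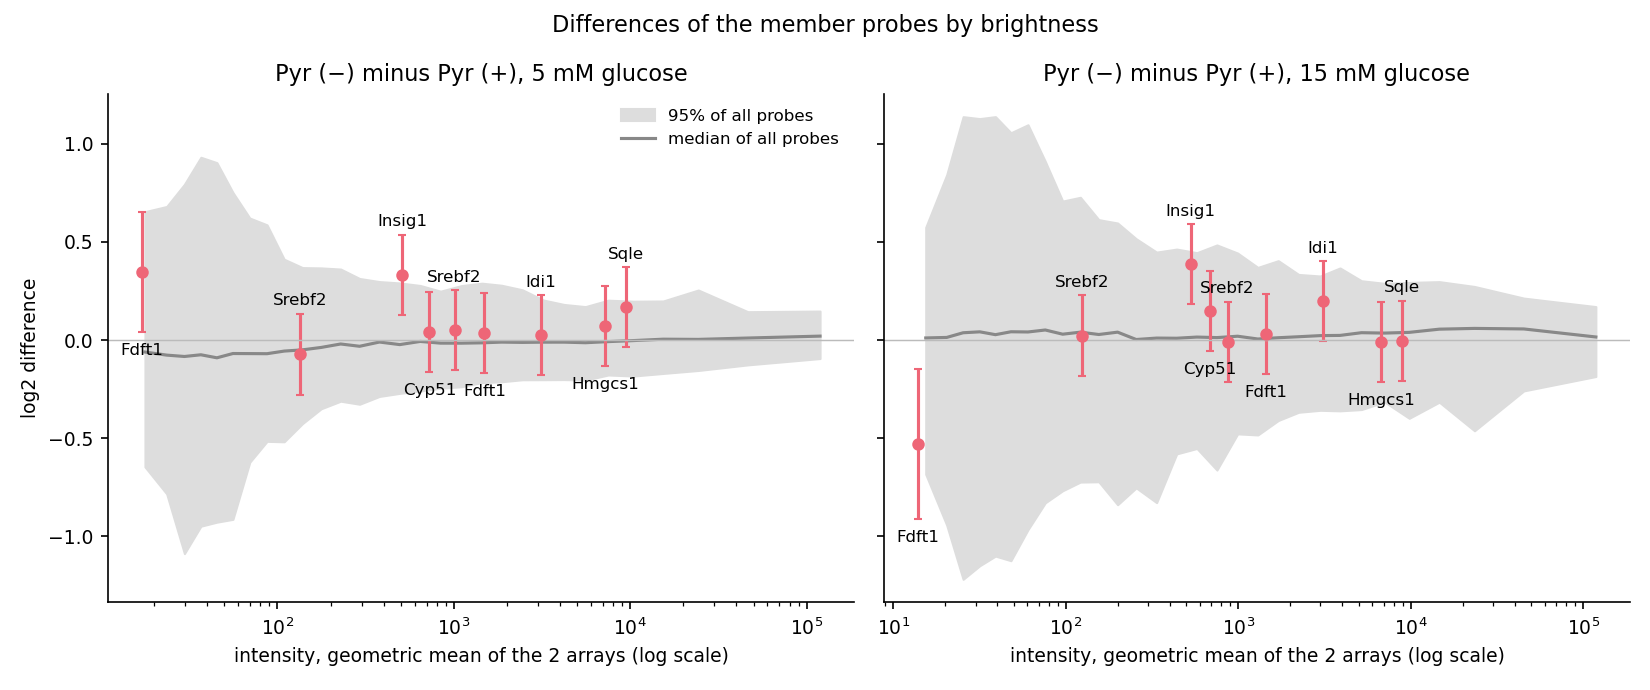
Log2 difference of each measured member probe for the removal of pyruvate at 5 mM (left) and 15 mM glucose (right), against intensity on a log axis. Points are probes with bars for the error of the scanner software, the shaded area holds 95% of the probes well above background on all arrays in bins of like brightness, and the grey line is their median. Insig1 lies above the shaded area at 5 mM (0.33) and inside it at 15 mM (0.39).

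One linear model could be fitted to the 4 arrays, with glucose and pyruvate as additive terms and 1 residual degree of freedom, in limma over 31274 probes. It called 0 probes for pyruvate and 0 for glucose at a Benjamini-Hochberg adjusted p of 0.05, with 1077 and 1495 probes at an unadjusted p under 0.05. The pyruvate term of Insig1 in limma was 0.36 with a standard error of 0.090, an unadjusted p of 0.0365 and an adjusted p of 0.985. The lowest limma adjusted p of a member probe was 0.985 for pyruvate and 0.772 for glucose. On simulated arrays with the noise found between these ones, the same fit recovered 0 of 100 probes changed 2-fold and 0 of 100 changed 4-fold, so a count of 0 from this design does not show that levels were equal.

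As a set, the members were described by counts and medians beside those of all probes. In the removal of pyruvate at 5 mM glucose, 0 of 7 members passed 1.5-fold, against 5.39% of all probes with a difference, and the median of the members was 0.07 against −0.02 for all probes. At 15 mM glucose 0 of 7 passed, against 9.71%, with medians of 0.0069 and 0.03. For high glucose with pyruvate the members had 0 of 7 against 5.3%, with medians of 0.08 and −0.02. For high glucose without pyruvate they had 0 of 7 against 10.4%, with medians of 0.0047 and 0.03. Members were counted here as genes, with their measured probes averaged, whereas the shares are of single probes. Taken as a single probe, the dim Fdft1 probe passed 1.5-fold for high glucose without pyruvate (−0.61). On the spike-in scale the median of the members was negative in all 4 comparisons (−0.14, −0.05, −0.32 and −0.24), as was that of all probes (−0.23, −0.03, −0.42 and −0.21). Without Insig1, the medians of the other 6 members were 0.06, 0.0013, 0.06 and −0.01 in the same order. Dim probes passed 1.5-fold more often than bright ones: for pyruvate at 5 mM glucose the share was 6.94%, 0.228% and 0.0326% among probes of low, middle and high brightness, in 3 parts of equal size. All 7 members had a probe in the middle or the brightest part.

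**Figure D3:**
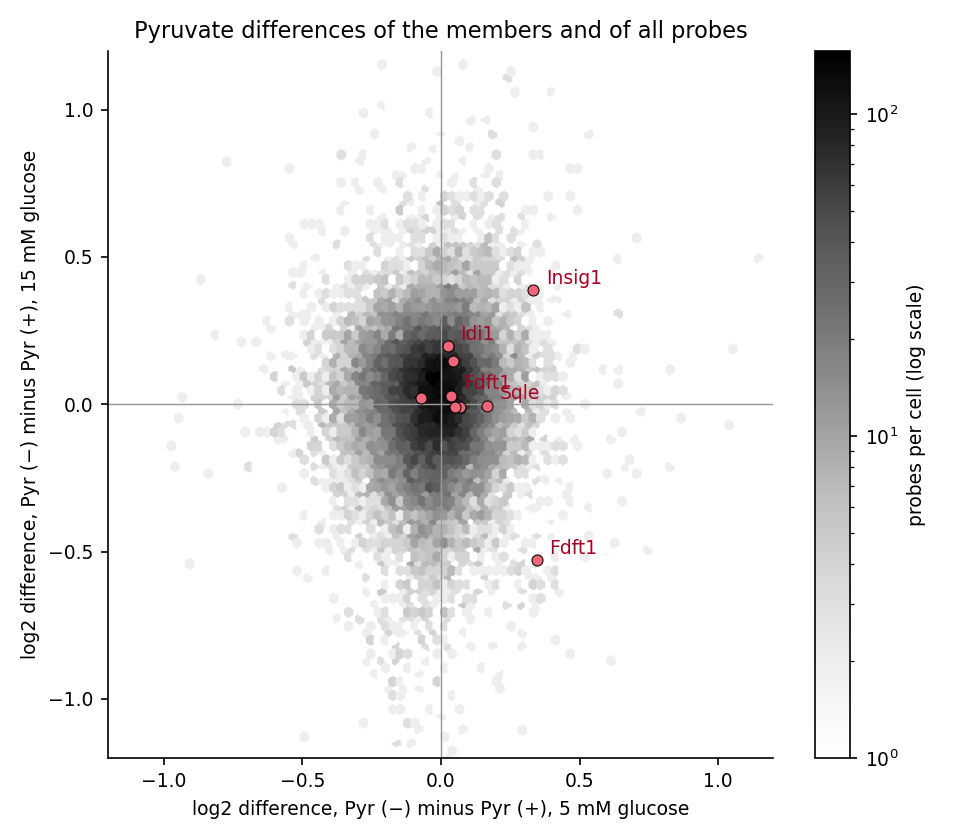
Log2 difference for the removal of pyruvate at 15 mM glucose against that at 5 mM glucose, for the member probes (red) and for all probes well above background on all 4 arrays (grey, number per cell on a log scale). Probes beyond the axes are not drawn. Insig1 is higher in both (0.33 and 0.39), the dim Fdft1 probe has opposite signs (0.35 and −0.53), and the other members lie near the centre.

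Genes around the members were described from 3 lists. The 17 other enzymes of cholesterol synthesis, with Ggps1 of a side branch counted among them, had medians of 0.10 and 0.12 for the removal of pyruvate at 5 and 15 mM glucose. They were higher without pyruvate in 15 of 17 at 5 mM and in 13 of 17 at 15 mM, against 44.5% and 55.9% of all probes, while on the spike-in scale their median at 5 mM was −0.11 and that of all probes −0.23. In both comparisons 11 of the 17 were higher and 0 were lower, against 25.5% and 24.9% of all 21719 genes. Among the members, Idi1, Cyp51 and Insig1 were higher in both and 0 were lower in both, but on the spike-in scale Idi1 and Cyp51 turned to −0.19 and −0.17 at 5 mM glucose. Their medians were about as large as the spread of replicate spots (0.10). Chosen after the values were seen, Ggps1, which makes geranylgeranyl diphosphate for the modification of proteins, gave 0.21 and 0.39 as the mean of 3 probes, and Dhcr7, the last reductase of the pathway, gave 0.13 and 0.29.

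In this list 1 of 17 passed 1.5-fold for the removal of pyruvate at 5 mM glucose, against the 5.39% of all probes, and 0 at 15 mM. For glucose the 17 enzymes had medians of 0.06 with pyruvate and 0.09 without, with 0 past 1.5-fold.

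The second list held 8 genes that regulate SREBP or serve uptake and transport of cholesterol, among them Scap, Insig2, Srebf1 and the cleaving proteases Mbtps1 and Mbtps2. Its medians were 0.03 and −0.05 for the removal of pyruvate at 5 and 15 mM glucose and 0.02 and −0.04 for glucose with and without pyruvate, and 0 of 8 passed 1.5-fold in any of the 4. Insig2, the relative of Insig1 that shares its role, gave 0.01 and 0.04 for the removal of pyruvate as the mean of 2 probes.

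The last list held 9 genes of efflux, storage and oxysterol metabolism, of which Abcg1, a sterol exporter, was not well above background on any array. The medians of the other 8 were −0.02 and 0.06 for pyruvate at 5 and 15 mM glucose and −0.0019 and 0.05 for glucose with and without pyruvate, with 0 past 1.5-fold. The largest differences were those of Mylip, a ubiquitin ligase induced by oxysterol receptors. Mylip gave −0.09 for the removal of pyruvate at 5 mM and 0.43 at 15 mM glucose, and 0.51 for glucose without pyruvate.

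**Figure D4:**
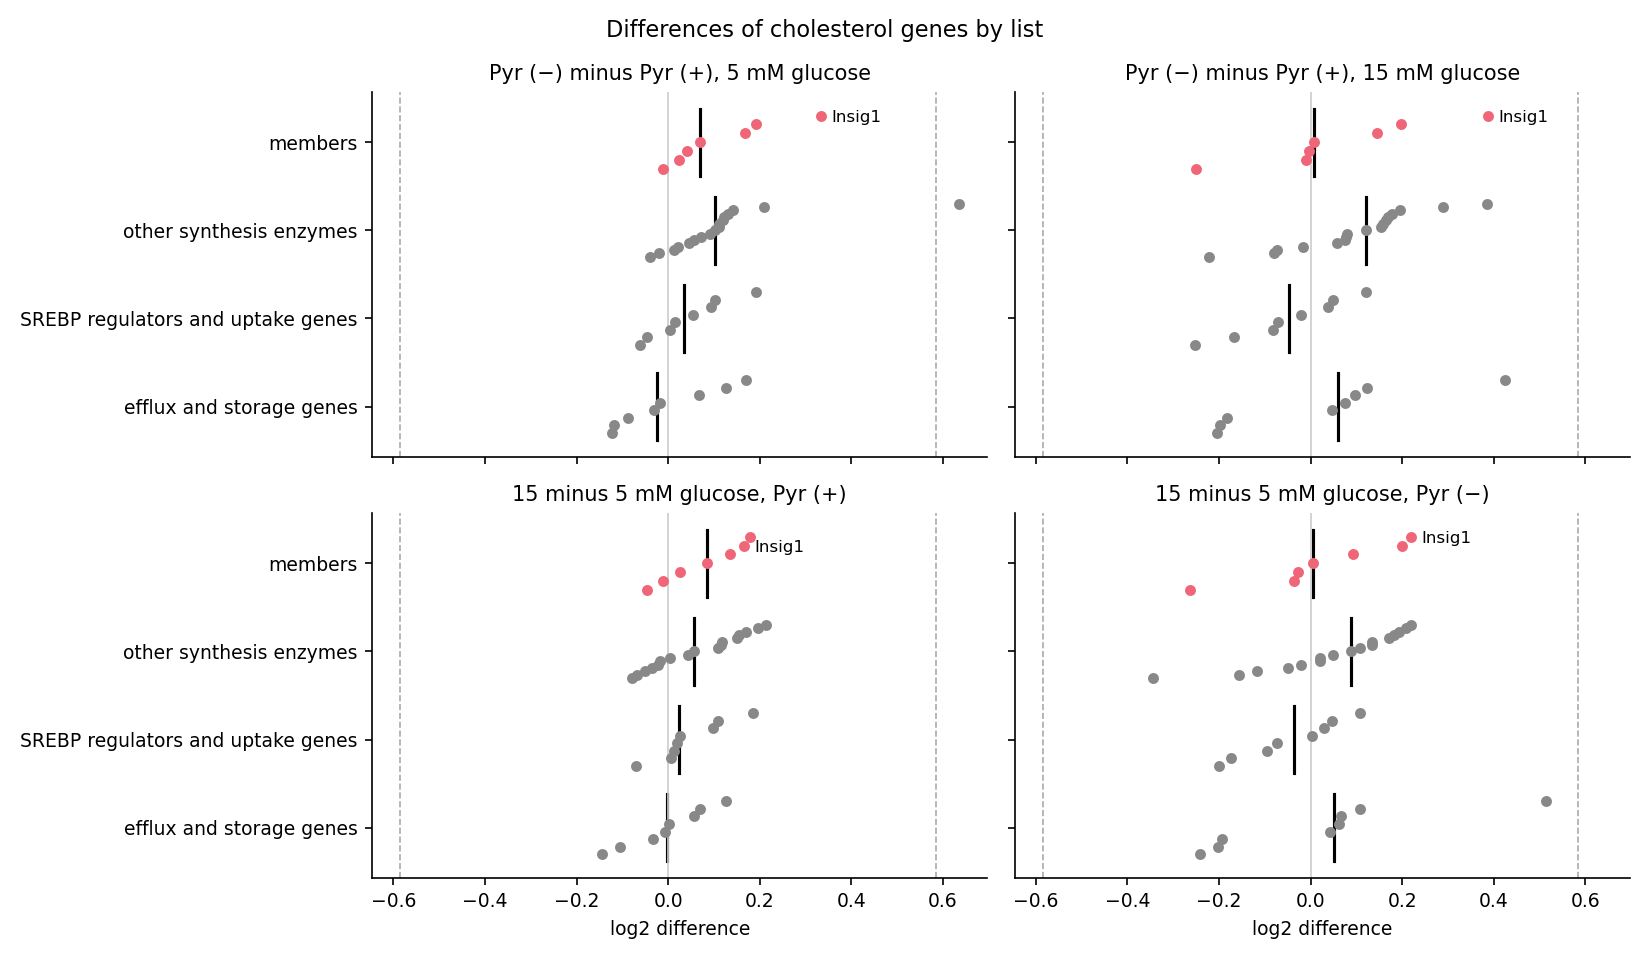
Log2 difference of each gene of the members (red) and of the 3 other cholesterol lists (grey) in the 4 comparisons, with black bars for the medians, dashed lines at 1.5-fold and a solid line at 0. The medians of the other enzymes are 0.10 and 0.12 in the upper panels, and no member lies beyond the dashed lines.

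The 3 genes outside these lists whose 4 levels followed Insig1 most closely were taken from 2759 genes well above background on all arrays with a range of at least 1.5-fold. Likeness was the root mean square distance of the centred log2 levels over the 4 arrays. Cnn1, which encodes calponin 1, read 165, 195, 166 and 229 and lay 0.039 from Insig1. A transcript annotated as an immunoglobulin heavy chain V region (0.039) and the taste receptor gene Tas1r2 (0.042) followed on dim probes, the former at 11.7 to 16.8 and the latter at 19.6 to 28.2.

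The Schwann cell markers S100b (3519 to 4319) and Sox10 (4837 to 5667) were read at high intensity on all 4 arrays, whereas Erbb3 (15.6 to 22.2) was dim. Among the markers of other cell types, Cdh5 of endothelium was not well above background on any array, Pdgfra and Thy1 of fibroblasts read 15.4 to 19.9 and 40.3 to 47.8, Ptprc of leukocytes 23.4 to 29.6 and Adgre1 of macrophages 29.9 to 38.3 on its brightest probe. Col1a1 of fibroblasts read 786 to 928. Cd68 of macrophages read 1200, 1258, 969 and 1817. For the removal of pyruvate Cd68 gave 0.11 at 5 mM and 0.88 at 15 mM glucose. For glucose it gave −0.15 with and 0.62 without pyruvate. Pecam1 of endothelium read 202, 177, 137 and 117, lower without pyruvate (−0.15 and −0.26) and lower at 15 mM glucose (−0.40 and −0.51). Of the 2 neuronal markers, Tubb3 read 322, 383, 337 and 423, higher without pyruvate by 0.29 and 0.30, much as Insig1. The other, Rbfox3, was dim (8.90 to 42.7 on its brightest probe). The part of these genes in the Insig1 values was not tested. Fewer cells of a type and less RNA per cell cannot be told apart on such arrays.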

How the data were processed

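Total RNA of IMS32 cells was labelled with Cy3 and hybridized to 4 one-colour Agilent arrays, 1 per condition, on 1 slide with 1 scan day. The deposited intensity values are background-subtracted signals of Agilent Feature Extraction 11.5.1.1, per the file headers, with 0 saturated spots. Each array had 39429 mouse probes, of which 28470 to 30344 were well above background, and the number of arrays limits the precision. A deposited table of ratio values by the authors matched the same signals divided by 1 constant per array (44397 of 44397 features on each, within 1e-06), served as an alternative and has medians of 0.0535 to 0.0566; nothing in its values pointed to centring of genes.

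Control spots and 166 to 183 outlier spots per array were left out, spots of a probe were averaged, and log2 signal minus the 75th percentile of each array was compared. A difference was measured where both arrays of a comparison were well above background. Where 1 array was, it was a bound, and where neither was, none was given, which is stricter than the planned filter of 1 array of the 4. A gene value was the mean over its measured probes, and the threshold was 1.5-fold. The additive fit used limma 3.58.1 (R 4.3.3, Benjamini-Hochberg), was tested on simulated data and rests on 1 residual degree of freedom. The 1.5-fold count was run on separate simulated data whose only noise was the spread of replicate spots. For pyruvate at 15 mM glucose it recovered 200 of 200 probes changed 2-fold, with 0 of the unchanged called, among 27589 probes. The measured differences of all probes in that comparison had a larger SD, 0.33. The simulation therefore checks the counting and does not give the rate of false calls between these arrays.

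Members and lists were chosen with earlier results of these data known. Named were the members, the genes of the other lists past 1.5-fold or with the largest difference of their list, and the 3 genes most like Insig1. Some genes that this rule takes from the other lists, and some markers, are not reported here. Alternatives were 4 other scalings (75th percentile of detected probes, quantile, cyclic loess, spike-in controls), the normexp background model (offset 50), the table of ratios, filters on dim probes, a 2-fold threshold, the brightest probe of a gene and an intensity trend in the variance prior.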

Additional observations from a re-analysis of the deposited data

Results flagged for a closer look

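The dim Fdft1 probe (A_52_P136138) had opposite signs in the 2 pyruvate comparisons, 0.35 at 5 mM and −0.53 at 15 mM glucose, so that the difference at 15 mM minus that at 5 mM glucose was −0.88. It was noted because each comparison has 1 array a side and the 2 moved in opposite directions; the difference between them was not tested. Under normexp background correction the dim probe gave 0.22 and −0.34. The bright Fdft1 probe gave 0.04 and 0.03.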

How the results depend on the processing

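Of 386 recalculated values, 339 moved by less than their technical error or, for counts, by less than 1.5 times, and 0 reversed a call. That 0 says little, because the only member difference past 1.5-fold to start with was that of the dim Fdft1 probe. Turns of sign below 1.5-fold were not labelled as reversals. Under spike-in scaling, Insig1 for glucose with pyruvate turned from 0.17 to −0.23. The median of the members turned from 0.08 to −0.32 in that comparison. In all alternatives, 0 of the 7 members passed 1.5-fold in any comparison, nor at 2-fold. Of 216 recalculated differences of member probes, 32 moved by more than the spread of replicate spots, 27 of them under scaling to the 8 spike-in probes used. The larger error of the scanner software was not the yardstick here. Medians on the spike-in scale are given for pyruvate at 5 mM glucose, glucose with pyruvate and glucose without pyruvate. They were −0.14, −0.32 and −0.24 for the members and −0.11, −0.35 and −0.15 for the other enzymes. For the regulators and uptake genes they were −0.18, −0.38 and −0.28, and for the efflux and storage genes −0.24, −0.40 and −0.19. The medians for pyruvate at 15 mM glucose moved by less than the spread of replicate spots. The limma fit called 13 probes for pyruvate and 28 for glucose under spike-in scaling, and 2 for pyruvate under normexp, against 0 otherwise; the cause was not tested. The medians of the regulator and efflux lists were recalculated under alternatives added after the data were seen. The one past-1.5-fold difference of the dim Fdft1 probe, −0.61 for glucose without pyruvate, was −0.21 under normexp and −0.55 after quantile normalization. Arrays could not be paired by replicate, because each group holds a single array and replicate numbers pair nothing. The additive fit takes glucose as the block for pyruvate, and no replicate could be left out. Dim signals near background limit the Fdft1 and Hmgcs1 probes named as dim.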

Other observations

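Among the 17 other enzymes of cholesterol synthesis, Lss, which closes the sterol rings to form lanosterol, had the lowest value for the removal of pyruvate at 15 mM glucose (−0.22), on a probe that read 449 with and 442 without pyruvate at 5 mM glucose and 436 with and 382 without it at 15 mM glucose. At 5 mM glucose its difference was 0.01. Abca1, a cholesterol exporter, read 8294, 7412, 6707 and 6039 and was lower without pyruvate (−0.12 at 5 mM and −0.18 at 15 mM glucose on the log2 scale), both within the error of the scanner software. Ch25h, which makes an oxysterol from cholesterol, read 3692, 3312, 3066 and 2717, with −0.12 and −0.20. These genes were picked after their values were seen, and none has a replicate.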
